A study of Mus musculus with 2 samples.

Results

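The 10 genes described here encode the arginine methyltransferase PRMT5, 4 proteins that bind it and steer it to its substrates (WDR77, CLNS1A, RIOK1 and COPRS), and 5 other members of the arginine methyltransferase family (PRMT1, PRMT2, PRMT3, CARM1 and PRMT7). They were chosen by gene symbol, and each symbol matched a row of both count tables, so that 10 of 30905 genes are considered. The tables come from droplet single-cell RNA sequencing of CD3+ T cells sorted from C57BL/6 mouse spleens. The CKO library is titled as Prmt5-CKO and comes from CD4-Cre+ PRMT5fl/fl mice, in which a Cre transgene under the Cd4 promoter removes a loxP-flanked stretch of Prmt5. The other library is titled as the control (WT). Its genotype field carries the same entry as the CKO sample, with Cre and the floxed gene, so the groups rest on the titles. The design names 3 mice for CKO and 3 for the control, cells cannot be assigned to a mouse, and each group is therefore 1 library. Age is not given, nor are the deleted exons. No p-value can be formed from 1 library a group. Intervals given with values are exact at the 95% level and reflect the counting error alone, and genotype cannot be told apart from differences between the preparations.

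Arginine methyltransferases transfer methyl groups from S-adenosylmethionine to arginine side chains of histones, RNA-binding proteins and signalling proteins. The type I enzymes (PRMT1, PRMT2, PRMT3 and CARM1 among them) form asymmetric dimethylarginine, PRMT5 forms most of the symmetric dimethylarginine, and PRMT7 forms monomethylarginine. PRMT5 works in a complex with WDR77, and CLNS1A, RIOK1 and COPRS are adaptors that bring it different substrates, with the Sm proteins of the splicing machinery as the best known. T cells increase PRMT5 when they are activated. A Cd4-driven Cre acts in the thymus at the stage when T cells carry both CD4 and CD8, so it reaches both αβ lineages, whereas γδ T cells do not pass through that stage.

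RefSeq promoter windows (GRCm38.p6, 250 bases before to 50 after the annotated start) were found for 8 of the 10 genes, all but Coprs and Carm1. They were searched for CACGTG, the E box to which MYC and related factors bind, and for CCAAT on either strand, the box bound by NF-Y. CACGTG reads alike on both strands, and in these windows no match of it overlapped a CCAAT match. It occurred in 4 of the 8 windows and in 7.15% of all 32851 windows. The stretch of 30 bases around the motif is shown for these 4 genes, with the motif in capitals. Genes without it also differed in level between T cell types below.
Wdr77: gcagaggtacacCACGTGtgcggtccctcc
Prmt1: acccaatcgtcaCACGTGctgggtgagaca
Prmt3: gccccctacgccCACGTGacccggaagcgc
Clns1a: gggaaccgatgcCACGTGacaaaagccagc
The stretches lie at chr3:105959495-105959524 on the plus strand (Wdr77, the motif beginning 10 bases after the start), chr7:44986584-44986613 on the minus strand (Prmt1, 181 bases before), chr7:49778333-49778362 on the plus strand (Prmt3, 13 bases before) and chr7:97696531-97696560 on the plus strand (Clns1a, 114 bases before).

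CCAAT occurred in 4 of the 8 windows, against 37.4% of all windows. Prmt5 held 4 matches, beginning 206, 103, 87 and 46 bases before its RefSeq start. The 195 bases upstream of its GENCODE start are shown for the targeted gene, with 3 of those matches in capitals, ATTGG being CCAAT on the other strand. They lie at chr14:54517526-54517720 on the minus strand.
Prmt5: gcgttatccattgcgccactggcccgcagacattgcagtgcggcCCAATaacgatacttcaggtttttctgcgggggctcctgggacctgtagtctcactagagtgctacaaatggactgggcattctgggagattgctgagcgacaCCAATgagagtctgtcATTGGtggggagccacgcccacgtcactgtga
A match is a string of letters and not a known site. No measurement of binding or chromatin was used here.

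After the cell filter the CKO library held 7565 T cells with 51339837 unique molecular identifiers (UMIs) and the control library 6619 T cells with 46709831 UMIs, with medians of 6049 and 6289 UMIs per cell. A level is given as CPM, a gene's UMIs scaled to the total of the summed cells. The T cell markers Cd3e, Cd3d, Cd3g, Trac and Trbc2 summed to 5795 CPM in CKO T cells and 5687 CPM in control T cells. Markers of 7 other sources and of NK cells summed to between 0.779 and 109.7 CPM in CKO T cells and between 0.1499 and 84.5 CPM in control T cells. Csf3r was at 0 in both libraries. Every one of these sums was higher in the CKO library, among them the 4 B cell markers with 18.3 CPM in CKO and 13.0 CPM in control T cells, and their part in the results was not tested. T cells with a Y-linked UMI made up 32.8% in CKO and 27.5% in control. The median mitochondrial share of UMIs was 4.33% in CKO and 5.09% in control T cells. The libraries shared 11 cell barcodes.

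Prmt5 itself was far lower in the CKO library, and among the 10 genes it was the only one past 1.5-fold. It stood at 4.87 CPM (4.28 to 5.51, 250 UMIs) in CKO T cells and 15.03 CPM (13.9 to 16.2, 702 UMIs) in control T cells. The CKO level was 32.4% of the control level (27.9 to 37.5), a log2 ratio of −1.63. The other genes differed far less. Of the 9 genes with at least 100 UMIs over both libraries, 1 was lower past 1.5-fold, against 1.33% of the 10639 genes so measured, and 0 were higher, against 3.76%. Prmt5 had the fifth lowest log2 ratio of the 10639 genes (rank 5 from the lowest). In naive-like CD4 cells and in naive-like CD8 cells it ranked 1 from the lowest among 9120 and 8023 genes.

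**Figure D1:**
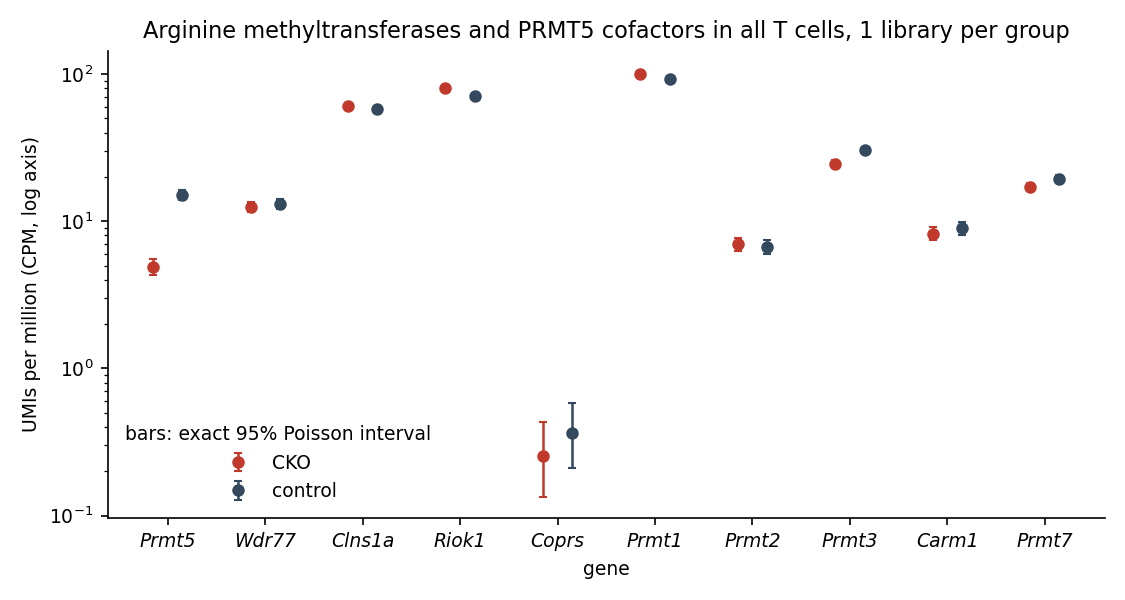
Level of the 10 genes in all T cells of the CKO library (red) and the control library (dark blue), in CPM on a log axis, with exact 95% Poisson intervals that are narrower than the points for the abundant genes. Prmt5 is at 4.87 CPM in CKO and 15.03 CPM in control T cells, and the pairs of the other well-counted genes lie close together.

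**Figure D2:**
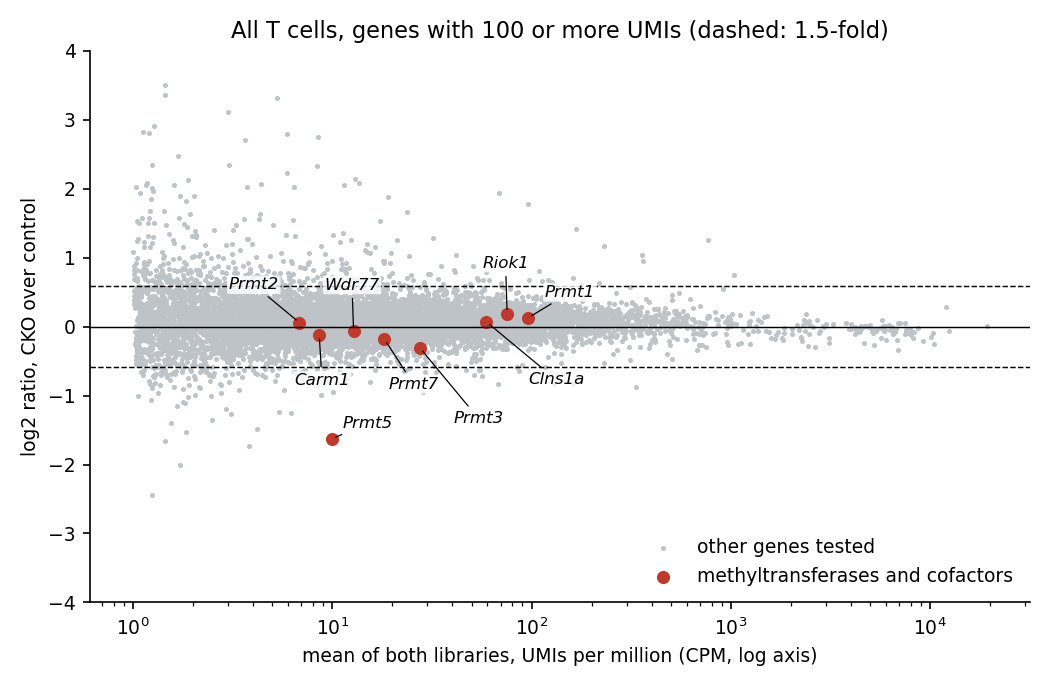
Log2 ratio of CKO over control in all T cells against the mean level on a log axis, for the 10639 genes with at least 100 UMIs over both libraries (grey), with 9 of the 10 genes in red and 1.5-fold as dashed lines. Prmt5, at −1.63, lies at the lower edge of the cloud and the other 8 lie between −0.31 and 0.19, while 2 genes beyond 4 are not shown.

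The library preparation reads the 3′ end of transcripts, which for Prmt5 (ENSMUSG00000023110, mm10 chr14:54507187-54517525, minus strand, 17 exons) is the last exon at chr14:54507187-54507947. The sources used here do not give the deleted exons, so whether the remaining UMIs come from intact transcripts was not tested. The counts show neither the protein nor the allele. After each cell was thinned to 2000 UMIs, a Prmt5 UMI was found in 57 of 7512 CKO T cells (0.759%, 0.575 to 0.982) and in 186 of 6594 control T cells (2.82%, 2.43 to 3.25). Without thinning the shares were 3.07% in CKO and 9.35% in control T cells. Thinning left out 53 CKO and 25 control T cells. The data hold no cell type that is known to lack Prmt5 and could serve as background. Among cells with any Prmt5 UMI, 6.90% in CKO and 10.5% in control carried at least 2, and the highest count in a cell was 3 in CKO and 5 in control.

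By T cell type, the CKO value of Prmt5 was below the control value in every type with at least 20 Prmt5 UMIs, and the interval lay below 0 in 8 of these 10 types. Of genes with at least 100 UMIs over both libraries in a type, between 5.58% and 13% had such an interval. Prmt5 itself was below that minimum in most of these types. Naive-like CD4 cells, 4198 in CKO and 2995 in control, held 3.33 CPM (81 UMIs) in CKO and 12.2 CPM (216 UMIs) in control, a log2 ratio of −1.88 (−2.26 to −1.50). Naive-like CD8 cells, 1310 in CKO and 1508 in control, held 4.97 CPM (48 UMIs) in CKO and 15.1 CPM (167 UMIs) in control, at −1.61 (−2.10 to −1.14). The ratio was similar in Treg-like cells, the Foxp3-expressing regulatory cells, with 3.30 CPM (11 UMIs) in CKO and 13.1 CPM (47 UMIs) in control, at −1.98 (−3.08 to −1.02). Cells with interferon-response genes held 3.85 CPM (8 UMIs) in CKO and 14.2 CPM (15 UMIs) in control, at −1.88 (−3.33 to −0.56). In these types the intervals of the CKO and control levels did not overlap.

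Within the CKO library, memory-like CD8, effector-like CD8 and proliferating-like cells had levels of Prmt5 whose intervals lay above that of naive-like CD4 cells. The control library had these types above naive-like CD4 cells too, at 1.56-fold (1.22 to 1.99), 2.20-fold (1.04 to 4.12) and 2.12-fold (1.48 to 2.97). By the interval of this ratio, other CKO types were also above 1-fold, among them memory-like CD4 cells at 2.26-fold (1.12 to 4.16). In memory-like CD8 cells the level was 10.2 CPM (19 UMIs) in CKO and 19.1 CPM (101 UMIs) in control, at −0.90 (−1.69 to −0.19), with level intervals that met between 15.6 and 15.97 CPM. Memory-like CD4 cells gave 7.52 CPM (12 UMIs) in CKO and 12.6 CPM (45 UMIs) in control, at −0.75, and the interval held 0 (−1.80 to 0.20). The memory-like CD4 cluster also had Zbtb16, a gene of natural killer T cells, among its 10 leading genes, and these cells were not separated. Effector-like CD8 cells, 162 in CKO and 49 in control and with a Trdc UMI in 31.3%, held 9.06 CPM (12 UMIs) in CKO and 26.9 CPM (10 UMIs) in control, at −1.57 (−2.90 to −0.20). That value was −2.49 under a stricter cell filter (1000 or more genes, a mitochondrial share below 5%), and −0.50 as the mean of each cell's CPM. After thinning to 2000 UMIs the shares of these cells with a Prmt5 UMI were 1.86% (0.386 to 5.35) in CKO and 0% (0 to 7.25) in control. Without thinning they were 6.79% (3.44 to 11.8) in CKO and 16.3% (7.32 to 29.7) in control. The intervals overlapped in both cases. Proliferating-like cells, which express Mki67, held 10.7 CPM (26 UMIs) in CKO and 25.9 CPM (41 UMIs) in control, at −1.28 (−2.05 to −0.53). As a share of the control level, the CKO level ran between 16.1% and 74.7% over the 10 types. The difference between types was not tested.

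The widest gap was in an unnamed cluster with Eomes, Xcl1 and Tnfrsf9 among its leading genes, which held 174 CKO and 103 control cells. Prmt5 was at 6.24 CPM (3.23 to 10.9, 12 UMIs) in CKO and at 38.8 CPM (28.5 to 51.6, 47 UMIs) in control, a log2 ratio of −2.63 (−3.69 to −1.70). In the control library this was the highest level of Prmt5 of the 11 types, though its interval overlapped that of the next type. After thinning to 2000 UMIs the shares of its cells with a Prmt5 UMI were 2.299% (0.630 to 5.78) in CKO and 3.88% (1.07 to 9.65) in control, 4 cells each, with intervals that overlapped. Without thinning they were 5.17% (2.39 to 9.59) in CKO and 27.2% (18.9 to 36.8) in control, and the intervals did not overlap. At 1000 UMIs the gene was seen in 0 of 174 CKO cells (0%, 0 to 2.10) and in 6.80% (2.78 to 13.5) of those of the control library. The smallest gap was in an unnamed cluster led by Fcer1g, with natural killer receptor genes and a Trdc UMI in 49.9% of its cells. Prmt5 was at 6.96 CPM (14 UMIs) in CKO and 9.33 CPM (11 UMIs) in control there, at −0.42 (−1.67 to 0.86), so a difference was not detectable. The γδ-like cells held 7 Prmt5 UMIs in CKO and 2 in control, too few for a comparison. B-like cells, in which a Cd4-driven Cre is not expected to act, held 14.2 CPM (8 UMIs) in CKO and 23.6 CPM (10 UMIs) in control, and the interval of the log2 ratio (−2.27 to 0.76) held 0.

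**Figure D3:**
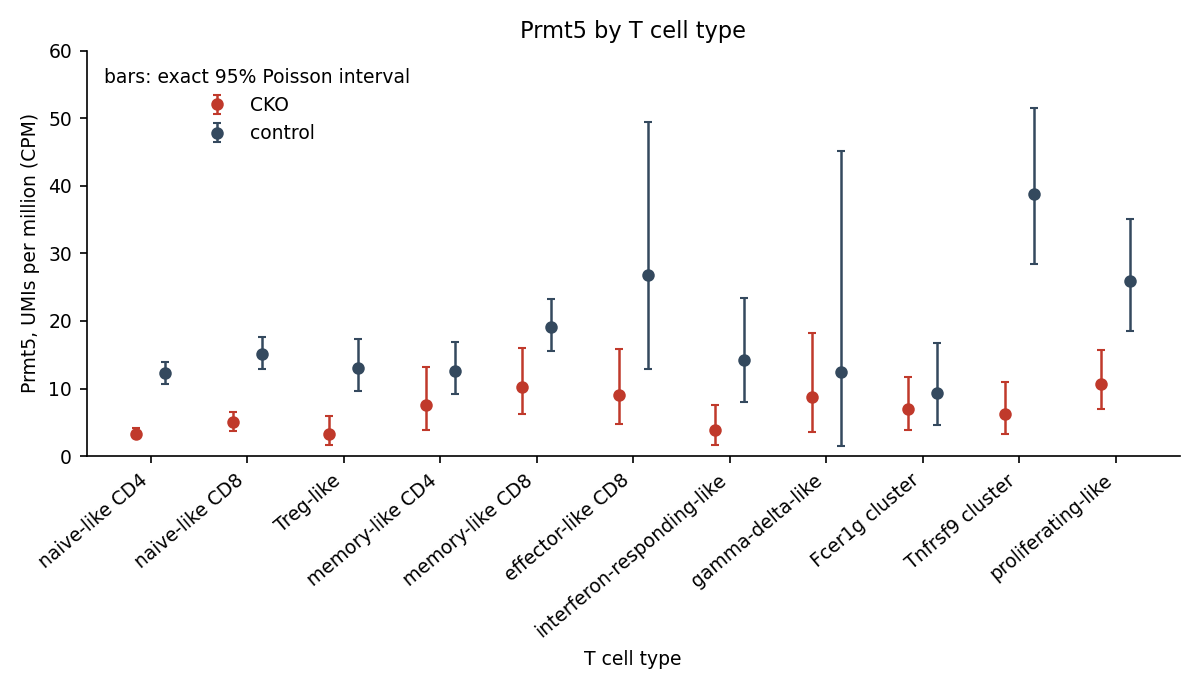
Level of Prmt5 in CPM in 11 T cell types, with the CKO library in red left of the control library in dark blue and exact 95% Poisson intervals as bars. In the Tnfrsf9 cluster the level is 6.24 CPM in CKO and 38.8 CPM in control, and bars are wide in the effector-like CD8 and γδ-like types, which hold few cells.

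Naive-like CD4 cells were made up of 4 clusters, of which 1 held 1125 CKO and 52 control cells. Prmt5 was lower in each of the 4, with log2 ratios of −2.13, −1.75, −2.71 and −1.71 and every interval below 0. In the cluster of mostly CKO cells the level was 3.46 CPM (26 UMIs) in CKO and 22.7 CPM (8 UMIs) in control. The other 3 clusters held at least 613 cells of each library.

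Of the PRMT5 partners, Wdr77 and Clns1a were near the control level and Riok1 was slightly higher in the CKO library. Wdr77, whose WD-repeat protein is the obligate partner of PRMT5 (ENSMUSG00000000561, chromosome 3), was at 12.5 CPM (641 UMIs) in CKO and 13.1 CPM (611 UMIs) in control T cells, a log2 ratio of −0.07 (−0.23 to 0.10). Among the types its interval left 0 in proliferating-like cells alone, with 13.1 CPM (32 UMIs) in CKO and 22.7 CPM (36 UMIs) in control, at −0.79 (−1.53 to −0.06). There 9% of genes with at least 100 UMIs over both libraries had an interval below 0, a minimum that Wdr77 did not reach. In naive-like CD4 cells Wdr77 was at 11.5 CPM in CKO and 9.68 CPM in control, at 0.25 (−0.03 to 0.53).

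Clns1a encodes the chloride channel-related adaptor that presents Sm proteins to PRMT5 (ENSMUSG00000025439, chromosome 7). It was at 60.7 CPM (3114 UMIs) in CKO and 57.7 CPM (2697 UMIs) in control T cells, at 0.07 with 0 at the edge of the interval. It differed by less than counting error in 10 of the 11 types, and was higher in the Tnfrsf9 cluster, with 129.6 CPM in CKO and 100.7 CPM in control, at 0.36 (0.05 to 0.69). In that cluster 8.17% of genes with at least 100 UMIs over both libraries had an interval above 0. Riok1 encodes an atypical kinase that competes with CLNS1A for PRMT5 and brings it nucleolin (ENSMUSG00000021428, chromosome 13). It was at 80.3 CPM (4124 UMIs) in CKO and 70.5 CPM (3291 UMIs) in control T cells, at 0.19 (0.12 to 0.26). The ratio was 0.34 in cells with a Y-linked UMI and 0.10 in cells without one. Its value was higher in CKO in 9 of 11 types, and the interval lay above 0 in 6. Over the types, between 7.41% and 24.4% of genes with at least 100 UMIs over both libraries had such an interval. The highest ratios were 0.53 (0.07 to 1.02) in interferon-responding-like cells and 0.49 (0.25 to 0.72) in memory-like CD8 cells, where it stood at 120.6 CPM in CKO and 85.9 CPM in control. All of these are below 1.5-fold, and 2664 of the 10639 genes had a ratio at least as high as that of Riok1 in all T cells. Coprs, the adaptor for histones (ENSMUSG00000031458, chromosome 8), gave 13 UMIs in CKO and 17 in control T cells, so no difference was detectable at this depth.

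The type I enzymes Prmt1 and Prmt3 lay on opposite sides of 0. Prmt1, which makes most asymmetric dimethylarginine in mammalian cells (ENSMUSG00000109324, chromosome 7), was at 100.3 CPM (5150 UMIs) in CKO and 91.8 CPM (4290 UMIs) in control T cells, at 0.13 (0.07 to 0.19). It was higher in naive-like CD4 cells, at 0.12 (0.03 to 0.22), and in naive-like CD8 cells, at 0.18 (0.05 to 0.31), and the other 9 intervals held 0. Of genes with at least 100 UMIs over both libraries, 24.4% in naive-like CD4 and 24% in naive-like CD8 cells had an interval above 0. Over all T cells 2 of the 9 genes, Riok1 and Prmt1, had an interval above 0, against 32.4% of all genes, and 3, which were Prmt5, Prmt3 and Prmt7, had one below 0, against 15.5%. With so few genes these counts do not set the family apart from the rest.

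Prmt3, whose cytoplasmic enzyme methylates the ribosomal protein RPS2 (ENSMUSG00000030505, chromosome 7), was at 24.6 CPM (1262 UMIs) in CKO and 30.4 CPM (1422 UMIs) in control T cells, at −0.31 (−0.42 to −0.20). The ratio was uneven over the types. In naive-like CD4 cells it was −0.06 (−0.23 to 0.12), with 25.4 CPM in CKO and 26.4 CPM in control. In naive-like CD8 cells it was −0.46 (−0.70 to −0.23), with 25.5 CPM in CKO and 35.2 CPM in control. These intervals met at −0.23, and the difference between the types was not tested. Treg-like cells gave 18.9 CPM (63 UMIs) in CKO and 31.1 CPM (112 UMIs) in control, at −0.72 (−1.19 to −0.26). Memory-like CD8 cells gave 19.9 CPM (37 UMIs) in CKO and 33.9 CPM (179 UMIs) in control, at −0.77 (−1.32 to −0.25), and memory-like CD4 cells were at −0.73 (−1.44 to −0.07). The value was lower in 10 of 11 types, with 4 intervals below 0. In those 4 types between 6.24% and 12% of genes with at least 100 UMIs over both libraries had such an interval.

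Carm1, a coactivator enzyme that methylates histones and other coactivators (ENSMUSG00000032185, chromosome 9), was at 8.24 CPM (423 UMIs) in CKO and 8.95 CPM (418 UMIs) in control T cells, at −0.12 (−0.32 to 0.08). Prmt2, a weak type I enzyme (ENSMUSG00000020230, chromosome 10), was at 6.97 CPM (358 UMIs) in CKO and 6.70 CPM (313 UMIs) in control T cells, at 0.06 (−0.17 to 0.28). No interval of either gene left 0 in a type with at least 20 UMIs. Prmt7, the monomethylating enzyme (ENSMUSG00000060098, chromosome 8), was at 17.1 CPM (878 UMIs) in CKO and 19.4 CPM (904 UMIs) in control T cells, at −0.18 (−0.31 to −0.04). Its interval lay below 0 in 4 types, which were effector-like CD8 cells at −1.51 (15 UMIs in CKO and 12 in control), memory-like CD8 cells at −0.70, Treg-like cells at −0.61 and the Tnfrsf9 cluster at −0.59. In these 4 types between 6.24% and 10.9% of genes with at least 100 UMIs over both libraries had such an interval. Prmt7 was below that minimum in effector-like CD8 cells. In both naive-like types Prmt7 differed by less than counting error.

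**Figure D4:**
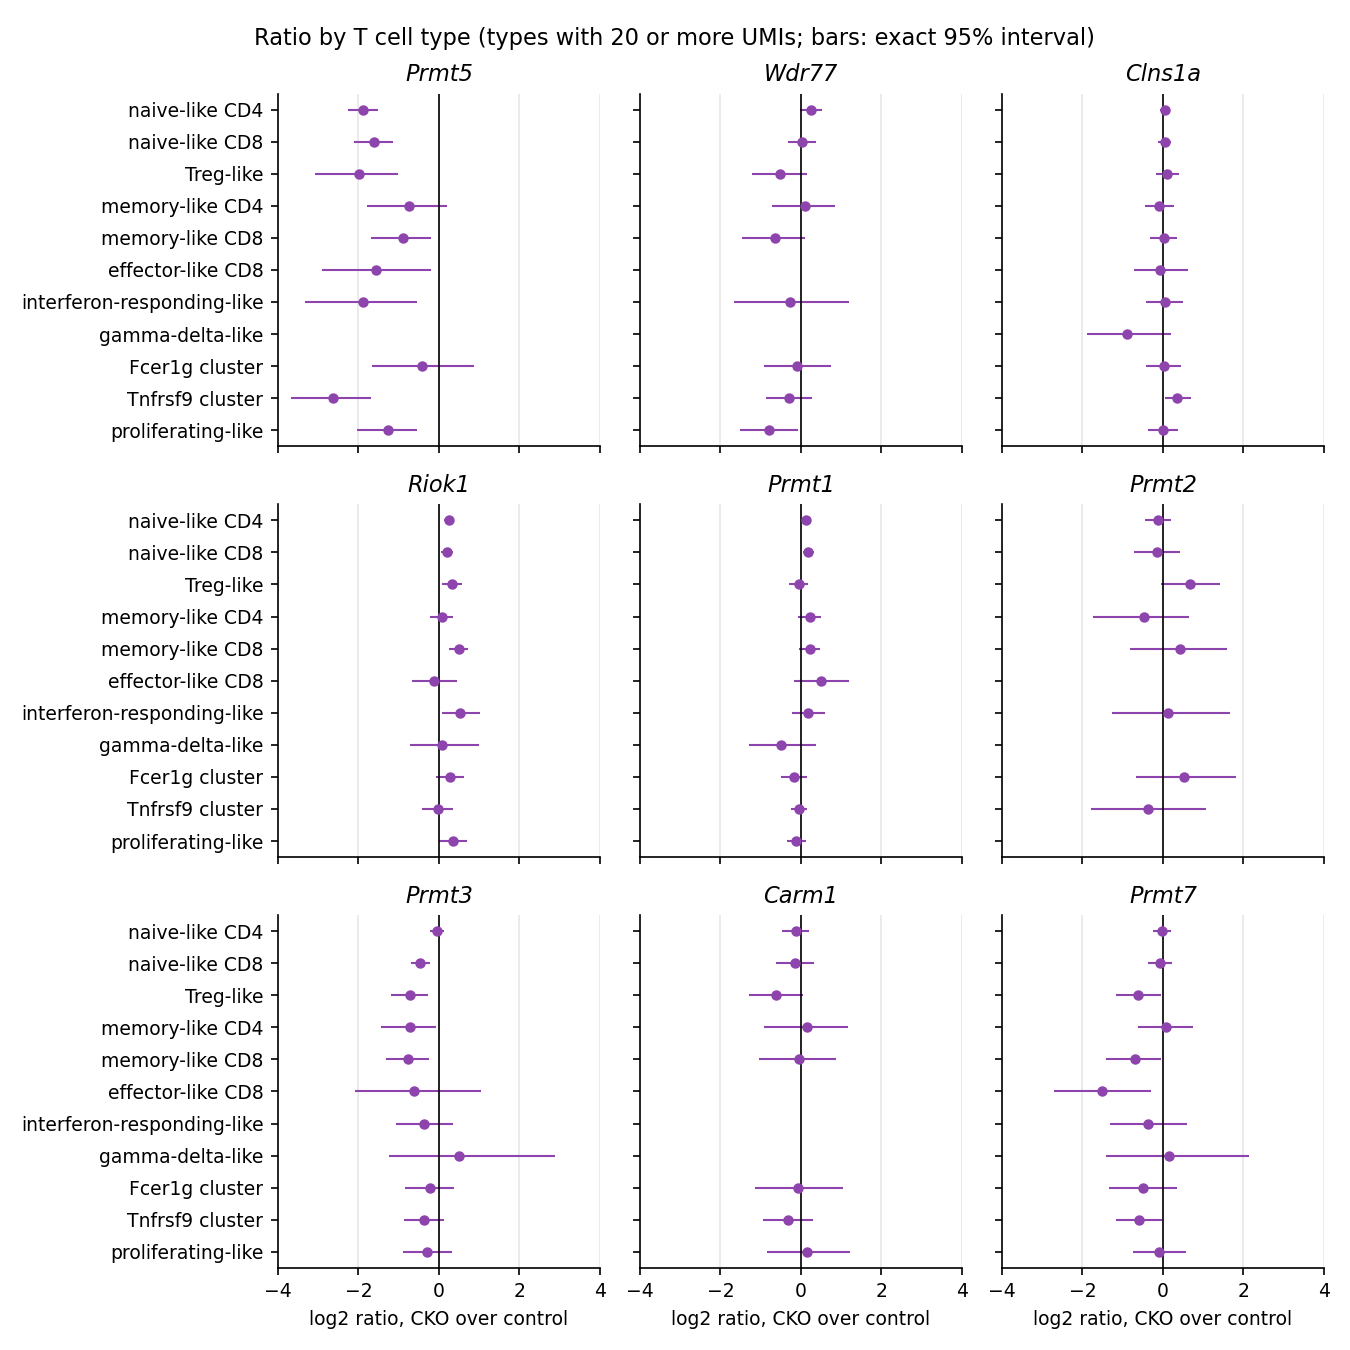
Log2 ratio of CKO over control for 9 of the genes in each T cell type with at least 20 UMIs of the gene, with exact 95% intervals. Prmt5 lies left of 0 in all 10 types shown, Prmt3 lies left of 0 in 10 of 11, and Riok1 lies right of 0 in 9 of 11.

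Counted with the 1.5-fold rule among genes with at least 100 UMIs in a type, the calls were few and all were lower. Prmt5 was the call of the 9 measured genes in naive-like CD4 cells (1.07% of genes) and in naive-like CD8 cells (1.17%). In Treg-like cells Prmt3 and Prmt7 were called, 2 of 5 measured (2.77%), while Prmt5 with 58 UMIs over both libraries was under the minimum. Both calls ended in an alternative. Prmt3 was at −0.57 there under the stricter cell filter, and Prmt7 was at −0.09 in cells gated on Cd4, Cd8 and Foxp3 UMIs and at −0.53 at the lower clustering resolution. In memory-like CD8 cells Prmt5, Prmt3 and Prmt7 were called, 3 of 6 (2.16%). Prmt3 was called in memory-like CD4 cells, 1 of 4 (4.67%), and Prmt7 in the Tnfrsf9 cluster, 1 of 6 (2.67%). These calls ended too, with Prmt3 at −0.52 in memory-like CD4 cells under that filter. Prmt7, at −0.586 just past the threshold of 0.585 in the Tnfrsf9 cluster, was at −0.56 there as the mean of each cell's CPM and at −0.57 with the median ratio of all genes set to 0. In effector-like CD8, interferon-responding-like, Fcer1g and proliferating-like cells 0 of 3 were called (4.78%, 1.43%, 1.29% and 1.61%). The 3 measured there were Clns1a, Riok1 and Prmt1. Prmt5 was under the minimum in those types, and also in memory-like CD4 cells and the Tnfrsf9 cluster, so it could not be called. Higher calls numbered 0 in each of the 10 types of this paragraph. The share of genes with such a call was 2.92% in naive-like CD4, 3.49% in naive-like CD8, 2.91% in Treg-like, 4.69% in memory-like CD4 and 4.73% in memory-like CD8 cells. It was 4.25% in effector-like CD8, 3.01% in interferon-responding-like, 2.83% in Fcer1g, 2.45% in Tnfrsf9 and 3.8% in proliferating-like cells.

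Within a library the genes also differed between types, and most of them were highest in the Tnfrsf9 cluster. The cluster was formed from other genes of the same cells, with the 10 genes left out, so its levels are a description. Relative to naive-like CD4 cells, 6 of 9 genes in the CKO library and 7 of 9 in the control library had an interval above 1-fold, against 25.7% and 27.1% of all genes. In each library 0 had an interval below 1-fold, against 15.1% in CKO and 11.9% in control. Over all genes the median fold was 1.03 in CKO and 1.10 in control. Carm1 was 3.97-fold higher than in naive-like CD4 cells in CKO and 4.57-fold in control. Wdr77 was 2.85-fold higher in CKO and 4.18-fold in control, and Prmt1 2.77-fold and 3.13-fold in the same order. Prmt7 was 1.78-fold higher in CKO and 2.62-fold in control, Clns1a 2.29-fold and 1.84-fold, and Prmt3 1.66-fold and 2.06-fold.

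Prmt5 was the seventh gene in the control library, where it was 3.17-fold higher in the Tnfrsf9 cluster (2.26 to 4.36). In the CKO library it was 1.88-fold higher, and the interval (0.931 to 3.46) held 1. Riok1, at 1.02-fold in CKO and 1.23-fold in control, and Prmt2, at 0.787-fold and 0.937-fold, did not differ beyond counting error. Cells of this cluster were deeper than most, with a median of 9132 UMIs in CKO and 9978 in control, and 3.74% of CKO and 2.59% of control T cell UMIs came from it. Of the 6 genes that were higher there in both libraries, Wdr77, Prmt1, Prmt3 and Clns1a hold the E box shown above, Prmt7 does not, and Carm1 had no window. Prmt5, higher there in the control library, does not hold it, nor do Riok1 and Prmt2, which did not differ. The share of E boxes among all genes higher there was not computed, and a link between motif and level was not tested.

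Proliferating-like cells showed another pattern. Prmt5 was 3.2-fold higher there than in naive-like CD4 cells in CKO (1.98 to 5.04) and 2.12-fold in control (1.48 to 2.97), and Prmt1 1.56-fold and 1.84-fold. Prmt2 was the only gene whose interval lay below 1-fold, at 0.169-fold in CKO (0.035 to 0.503, 3 UMIs) and 0.398-fold in control (0.127 to 0.951, 5 UMIs), against 15.2% of genes in CKO and 13.7% in control. In each library 3 of 9 genes had an interval above 1-fold in these cells, against 33.7% of genes in CKO and 32.3% in control, which is near the background. Beside Prmt5 and Prmt1 this was Riok1 in CKO at 1.17-fold (1.01 to 1.36) and Wdr77 in control at 2.35-fold (1.59 to 3.38). Riok1 in control was at 1.09-fold and Wdr77 in CKO at 1.14-fold, and both intervals held 1. In the order of the 11 types by level, neighbours rarely differed beyond counting error. Of 10 neighbouring pairs per gene, 0 were apart for Prmt5 in either library, and the clear steps were those below the Tnfrsf9 cluster for Wdr77, Clns1a and Prmt1 in CKO and for Prmt1, Prmt3 and Carm1 in control. Prmt1 in CKO had a further step, from proliferating-like cells down to the Fcer1g cluster.

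**Figure D5:**
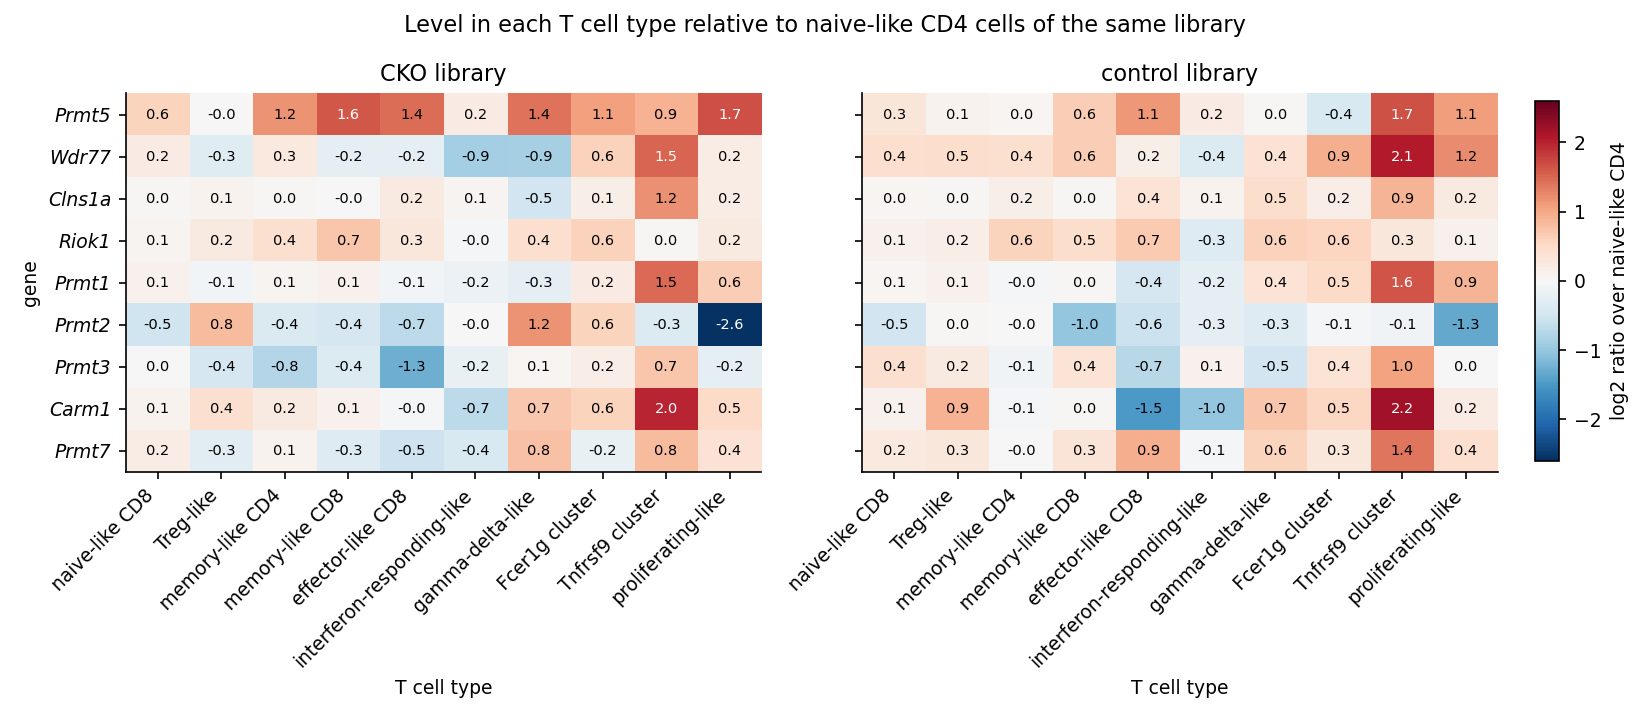
Log2 ratio of 9 genes in 10 T cell types over naive-like CD4 cells of the same library, the CKO library left of the control library, with red for higher and blue for lower. The Tnfrsf9 column is red for most genes in both libraries, and its Prmt5 field is 0.9 in CKO and 1.7 in control.

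The share of cells without a UMI of any of the 10 genes was alike in the libraries, while that of cells with Prmt5 differed, as given above. After thinning to 2000 UMIs, 55.3% of CKO and 55.8% of control T cells held no UMI of any of them. A Prmt1 UMI was seen in 17.2% (16.4 to 18.1) of the CKO and 16.03% (15.2 to 16.9) of the control T cells. For Riok1 the shares were 14.5% (13.7 to 15.3) in CKO and 12.04% (11.3 to 12.9) in control, and for Prmt3 they were 4.25% (3.80 to 4.73) in CKO and 5.51% (4.97 to 6.08) in control. At this depth Riok1 and Prmt3 were, apart from Prmt5, the genes whose shares had intervals that did not overlap between the libraries. The share of all genes with such intervals was not computed, so this does not set them apart. At 1000 UMIs the intervals of Prmt3 overlapped (2.09 to 2.79 in CKO and 2.34 to 3.14 in control). Without thinning those of Prmt7 were apart too (9.79 to 11.2 in CKO and 11.3 to 12.8 in control).

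The other genes of arginine methylation, 46 in 5 lists, were mostly near the control level. In all T cells 43 of them had at least 100 UMIs, of which 1 was higher past 1.5-fold and 0 were lower, against 3.76% and 1.33% of all genes. That gene was Ddah2, from the list of readers and erasers, with 1.85 CPM (95 UMIs) in CKO and 0.985 CPM (46 UMIs) in control, at 0.91 (0.39 to 1.45). The median log2 ratio was 0.05 over all genes. It was 0.06 for 4 other methyltransferases, −0.04 for 14 genes of the methyl donor cycle and methylthioadenosine salvage, and 0.11 for 7 readers and erasers. It was −0.03 for 9 other partners of PRMT1, PRMT5 and CARM1 and 0.06 for 9 substrates of PRMT5.

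Among the methyltransferases, Mettl23 was at 158.6 CPM in CKO and 148.6 CPM in control, at 0.09, and Ndufaf7, the mitochondrial enzyme that forms symmetric dimethylarginine on a complex I subunit, was at 11.6 CPM in CKO and 10.0 CPM in control, at 0.22 (0.04 to 0.40). Prmt9, the other enzyme of symmetric dimethylation, was at 0.02 and Prmt6 at −0.11, and both intervals held 0. Mat2a, which makes S-adenosylmethionine, was at 84.7 CPM in CKO and 91.4 CPM in control, at −0.11 (−0.17 to −0.05), while Mat2b was at −0.03, Ahcyl2 at 0.03 and Sms at 0.06. The largest ratio among the abundant list genes was that of Smndc1, a Tudor-domain splicing protein that reads methylarginine, with 92.5 CPM (4748 UMIs) in CKO and 63.6 CPM (2970 UMIs) in control, at 0.54 (0.47 to 0.61). It passed 1.5-fold in Treg-like cells at 0.60 and in memory-like CD8 cells at 0.72. The Tudor-domain genes Smn1 and Snd1 were at 0.11 and −0.14, and Jmjd6, reported as an eraser, at 0.18.

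Btg1 and Btg2, antiproliferative proteins that bind PRMT1, were lower, with Btg1 at 1701 CPM in CKO and 1954 CPM in control, at −0.20, and Btg2 at −0.15. Trmt112 and Mbd2 were at 0.09 and 0.13. The Sm and LSm substrates Snrpb, Snrpd3 and Lsm4 were at 0.13, 0.12 and 0.14, and the nucleolar substrate Ncl at 0.06. With Snrpd1 at 0.14, 5 of the 9 substrates had an interval above 0, against 32.4% of all genes. Supt5 and Fbl at −0.02 and Coil at −0.05 had intervals that held 0, and Gar1 was at −0.14 (−0.22 to −0.06). Calls also arose in single types. Apart from Smndc1 they were Amd1 lower in memory-like CD8 cells at −1.46, Mbd2 higher in memory-like CD4 cells at 0.75, Ncoa3 higher in the Tnfrsf9 cluster at 0.65 and Rbl2 higher in proliferating-like cells at 0.69. These genes were named because they passed the threshold.

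The genes with ratios nearest to those of Prmt5 in naive-like CD4, naive-like CD8 and Treg-like cells were not close to it. Among 9137 genes with at least 20 UMIs in each of these types, the nearest by Euclidean distance over the 3 log2 ratios were Nfil3 (1.24), Bag3 (1.30), Slc46a3 (1.35), Zfyve28 (1.38) and Amdhd2 (1.58). Nfil3, a leucine zipper transcription factor, was at −0.92 in naive-like CD4 cells, −0.85 in naive-like CD8 cells and −1.74 in Treg-like cells, where Prmt5 was at −1.88, −1.61 and −1.98. Bag3, a co-chaperone, was at −0.64, −1.36 and −2.29 in the same types. None of the 5 was as low as Prmt5 in naive-like CD4 cells. Prmt5 was the lowest of the 9120 genes with at least 100 UMIs there, which fixed this in advance for genes so counted. In naive-like CD8 cells Slc46a3 was lower than Prmt5, at −2.45 (4 UMIs in CKO and 25 in control). Bag3 was lower than Prmt5 in Treg-like cells.

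Some of the 10 genes share ground with others in GENCODE vM21 on mm10, and the sources do not state how strand was used in counting. The last exon of Prmt7 overlaps Smpd3 and Gm26786, that of Carm1 Yipf2 and that of Prmt3 Gm26856, all on the opposite strand, and that of Wdr77 overlaps Gm42890 and that of Prmt2 Mir678 on the same strand. Whether these overlaps changed the counts of these 5 genes was not tested. Prmt5, Prmt1, Clns1a, Riok1 and Coprs have no neighbour across the last exon.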

How the data were processed

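The deposited matrices hold counts, whole numbers of UMIs per gene and cell barcode, which the authors made with 10x 3′ V3.1 libraries per the labels' protocols. The submitters' processing notes name Cell Ranger 3.1.0, CASAVA 1.8, Seurat 2.3.4 and the build mm10, without the step each served. The files showed no normalization.

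Kept were cells that had 500 or more genes and a mitochondrial share below 10% (7660 of 7896 CKO and 6712 of 7407 control barcodes). Scrublet with an expected rate of 6% called 0 doublets in either library, so it has not worked and doublets remain. Cells were clustered with scanpy 1.11.5 on 2000 variable genes without receptor, immunoglobulin, mitochondrial and ribosomal genes and without the 10 genes described, with 30 components, 15 neighbours and Leiden resolution 1. Clusters were named from the share of cells with a UMI of single marker genes, by thresholds set after clusters had been seen. B-like and myeloid-like cells (72 and 23 in CKO, 67 and 26 in control) were left out of the T cells. The Fcer1g cluster (a Fcer1g UMI in at least 25% of cells, Cd8b1 in under 60%) was set by such thresholds as well. So was the Tnfrsf9 cluster (Tnfrsf9 and Xcl1 each in at least 20%). Both are called by these genes because no cell type was assigned to them. Clusters that met no rule arose only at resolution 0.5.

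UMIs were summed per type and library. Levels carry exact Poisson intervals, ratios exact conditional binomial intervals and shares Clopper-Pearson intervals (95%). A call was 1.5-fold with at least 100 UMIs over both libraries, and a type was considered for a gene with 20. Ratios were tested on simulated counts. Shares used 1 random thinning to 2000 UMIs. UMIs remove most PCR copies, and all intervals cover counting error only. Named were the 10 genes, list genes past 1.5-fold in all T cells, up to 4 more per list with the most UMIs, and the 5 genes nearest to Prmt5. The genes, lists and thresholds were chosen with earlier results of these data known. Positions are from GENCODE vM21 and promoters from RefSeq. Another marker list is not reported here.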

Additional observations from a re-analysis of the deposited data

How the results depend on the processing

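Of 120 values of the 10 genes in all T cells under 12 alternatives, 116 moved by less than their counting interval and none reversed a called direction. Prmt5 lay between −1.91 and −1.55. Its value was −1.91 with cells thinned to 2000 UMIs (58 UMIs in CKO and 191 in control) and −1.61 with the makeup of T cell types made equal. Riok1 was 0.34 in cells with a Y-linked UMI and 0.10 in cells without one, and Prmt1 was 0.029 in cells that had 1000 or more genes and a mitochondrial share below 5%. The cause was not tested. Wdr77, with an interval that held 0, changed sign in 2 alternatives and Prmt2 in 3. The share of cells with a Prmt5 UMI followed the depth, with 3.07% in CKO and 9.35% in control cells without thinning and 0.357% in CKO and 1.39% in control cells thinned to 1000 UMIs. With a lower fold threshold the lists held 2 genes higher and 3 lower. The share of all genes past that lower threshold is not given, so these counts do not set the lists apart. Setting the median ratio of all genes to 0, the mean of per-cell CPM and leaving out the highest 6% of doublet scores moved no value past its interval. At Leiden resolution 0.5 no cluster was named memory-like CD4, memory-like CD8 or effector-like CD8 and the Tnfrsf9 cluster was not kept apart, so values in these 4 types have no such alternative. Calls of Prmt3 and Prmt7 in Treg-like cells, of Prmt3 in memory-like CD4 cells and of Prmt7 in the Tnfrsf9 cluster each ended in at least 1 alternative. Added after seeing the data were the doublet scores by type and leaving out the Tnfrsf9 cluster or the naive-like CD4 cluster of mostly CKO cells, without which Prmt5 was at −1.58 and −1.55. No paired analysis was possible because each group is 1 library. Leaving out a replicate was likewise not possible.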
